A study of Rattus norvegicus with 6 samples.

Results

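The aldehyde dehydrogenases described here are 10 rat genes (Aldh1a1, Aldh1b1, Aldh2, Aldh3a2, Aldh3b1, Aldh4a1, Aldh6a1, Aldh8a1, Aldh1l1 and Aldh9a1), chosen as every non-control array probe whose transcript accession belongs to one of these symbols. They have 12 probes of the 30367 on the array and are 10 of 16389 tested genes. Of these tested genes 10044 have a symbol. The others are transcript names of the array that matched no symbol, each counted as a gene in every share given over all tested genes. The study measured liver RNA of male Wistar Hannover rats with 1-colour Agilent expression arrays, 1 rat per array. In the PCN group 3 rats received pregnenolone-16α-carbonitrile (PCN), a steroid agonist of the pregnane X receptor of rodents, by gavage at a daily dose of 100 mg/kg over 7 days. In the control group 3 rats received corn oil, the vehicle, by the same route for as long. All rats were bought at 4 weeks of age and kept for 1 week before dosing.

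Aldehyde dehydrogenases oxidise aldehydes to carboxylic acids with NAD or NADP as the electron acceptor. Liver carries members in the cytosol, mitochondria and endoplasmic reticulum, where they handle acetaldehyde from ethanol, retinal, fatty aldehydes, aldehydes from lipid peroxidation, and intermediates of amino acid, folate and carnitine metabolism. The pregnane X receptor is a nuclear receptor for foreign compounds that switches on drug-metabolizing enzymes and binds repeats of a short half-site in DNA.

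Levels are given as log2 of the processed signal relative to the 75th percentile of the same array, and a change is the PCN mean minus the control mean on this scale, with the standard error (SE) of limma's fit. A gene was called where the Benjamini-Hochberg adjusted p over all tested genes was under 0.05. Levels of different probes are not compared, since probes differ in how strongly they bind. Sums of marker levels, given below for cell types, weigh bright probes most. Of the 10 genes, 3 rose (Aldh3b1, Aldh1a1 and Aldh1l1), 1 fell (Aldh1b1) and 6 did not pass the test. Over all tested genes 19.9% were called, 4.37% higher and 15.5% lower. The median change of the 10 genes was 0.18, against −0.064 over all tested genes. The arrays of the groups did not overlap for 6 of the 10 genes, against 41.4% of all tested genes.

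The upstream sequences of the 4 genes that changed are shown because the receptor that PCN activates binds half-sites in DNA. Sequence beyond these short windows was not searched. Each is the 250 bases before the annotated start in RefSeq's GRCr8 table, and 9 of the 10 genes matched that table, Aldh2 being the one not matched. Capitals mark an octamer, a CCAAT box or a receptor half-site.
Aldh3b1, GRCr8 chr1:210591816-210592065, - strand: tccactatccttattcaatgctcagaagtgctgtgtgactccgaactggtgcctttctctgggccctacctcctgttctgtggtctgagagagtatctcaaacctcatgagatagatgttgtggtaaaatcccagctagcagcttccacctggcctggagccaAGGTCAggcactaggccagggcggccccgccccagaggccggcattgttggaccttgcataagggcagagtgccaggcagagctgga
Aldh1a1, GRCr8 chr1:227537370-227537619, + strand: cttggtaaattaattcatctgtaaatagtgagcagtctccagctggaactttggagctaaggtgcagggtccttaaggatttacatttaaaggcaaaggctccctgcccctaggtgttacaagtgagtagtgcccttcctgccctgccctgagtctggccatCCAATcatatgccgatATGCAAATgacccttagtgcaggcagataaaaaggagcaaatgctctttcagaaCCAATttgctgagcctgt
Aldh1l1, GRCr8 chr4:124616970-124617219, + strand: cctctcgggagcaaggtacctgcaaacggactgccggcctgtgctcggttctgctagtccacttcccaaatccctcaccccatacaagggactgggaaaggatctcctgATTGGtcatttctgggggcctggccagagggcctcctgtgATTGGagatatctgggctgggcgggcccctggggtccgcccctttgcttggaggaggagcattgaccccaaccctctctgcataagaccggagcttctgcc
Aldh1b1, GRCr8 chr5:64858750-64858999, + strand: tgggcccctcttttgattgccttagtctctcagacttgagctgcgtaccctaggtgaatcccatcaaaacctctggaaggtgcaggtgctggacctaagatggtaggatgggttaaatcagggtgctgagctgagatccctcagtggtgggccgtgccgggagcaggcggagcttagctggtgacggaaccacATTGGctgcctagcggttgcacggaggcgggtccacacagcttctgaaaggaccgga

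The search covered direct repeats of the half-site AGGTCA or AGTTCA with 3 or 4 bases between them, everted repeats of these half-sites with 6 bases between them, and the antioxidant element core (TGAC, 3 bases of any kind, then GC), on both strands. None of these was found in the 9 sequences. For the repeats this draws no conclusion, since they are so rare that nearly any 9 sequences would lack them. For the antioxidant core, at the share given next, 9 sequences are also too few for a conclusion. Among 33469 upstream sequences of the same length the direct repeats were present in 0.0388% (3 bases apart) and 0.0149% (4 bases apart), the everted repeat in 0.00299% and the antioxidant core in 10.1%. A single half-site was present in Aldh3b1, at bases −87 to −82 from the start, and in 24.3% of all sequences. The octamer ATGCAAAT and the CCAAT box (CCAAT, or ATTGG on the other strand) were added after the sequences were read. The octamer was present in Aldh1a1, at −72 to −65, and in Aldh8a1, at −69 to −62, against 1.56% of all sequences. A CCAAT box was present in 6 of 9, against 34% of all sequences. No matches to different motifs overlapped. These matches describe letters in the window, and the data hold no measurement of binding.

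Among enzymes of retinal and acetaldehyde, Aldh1a1 rose and Aldh1b1 fell. Aldh1a1, the cytosolic enzyme that makes retinoic acid from retinal, had levels of 5.80, 6.37 and 6.01 in PCN livers, against 4.83, 4.90 and 4.27 in control livers. All PCN arrays lay above all control arrays. The change was 1.39 ± 0.22 (SE, n = 3 per group), a 2.62-fold rise (adjusted p = 7.61e-03), with a 95% interval of 0.87 to 1.91. The processed signal itself was 33106, 51817 and 31367 in PCN livers, against 19349, 22649 and 12259 in control livers. It was called in each of 18 alternative settings, with changes between 1.14 and 1.52. Aldh1a7, a close relative of Aldh1a1 in rodents, had no matched probe here, and binding of its transcript to the Aldh1a1 probe was not tested.

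Aldh1b1, a mitochondrial enzyme that oxidises acetaldehyde and other short aldehydes, had levels of −1.47, −1.96 and −1.55 in PCN livers, against −0.94, −0.027 and −0.036 in control livers. The groups did not overlap, and control replicate 1 lay closest to the PCN arrays. The gene fell by 1.33 ± 0.28 on the log2 scale (adjusted p = 0.0188). The call was lost without PCN replicate 2 or control replicate 2 or 3 (adjusted p = 0.0571, 0.0586 and 0.0613).

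Aldh2, the main mitochondrial enzyme of acetaldehyde clearance, had levels of 5.96, 5.60 and 6.03 in PCN livers, against 5.66, 5.89 and 5.81 in control livers. The groups overlapped, with PCN replicate 2 the lowest of all 6 arrays. Its change was 0.077 ± 0.14 (adjusted p = 0.748), and the 95% interval ran from −0.27 to 0.42. The difference between the changes of Aldh1b1 and Aldh2, taken array by array, was −1.40, with spreads of 0.086 in PCN livers and 0.42 in control livers (SD, n = 3 each). For Aldh1a1 and Aldh2 the difference of changes was 1.31, with spreads of 0.50 in PCN livers and 0.37 in control livers (SD). Such a difference does not depend on how whole arrays are scaled. The two-sided exact permutation test gave p = 0.1 for both, which is the smallest that 3 against 3 arrays allow. These pairs, and the pair of Aldh1l1 and Aldh1l2, were picked after the values were seen, and the p adjusted over the 3 pairs was 0.1.

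**Figure D1:**
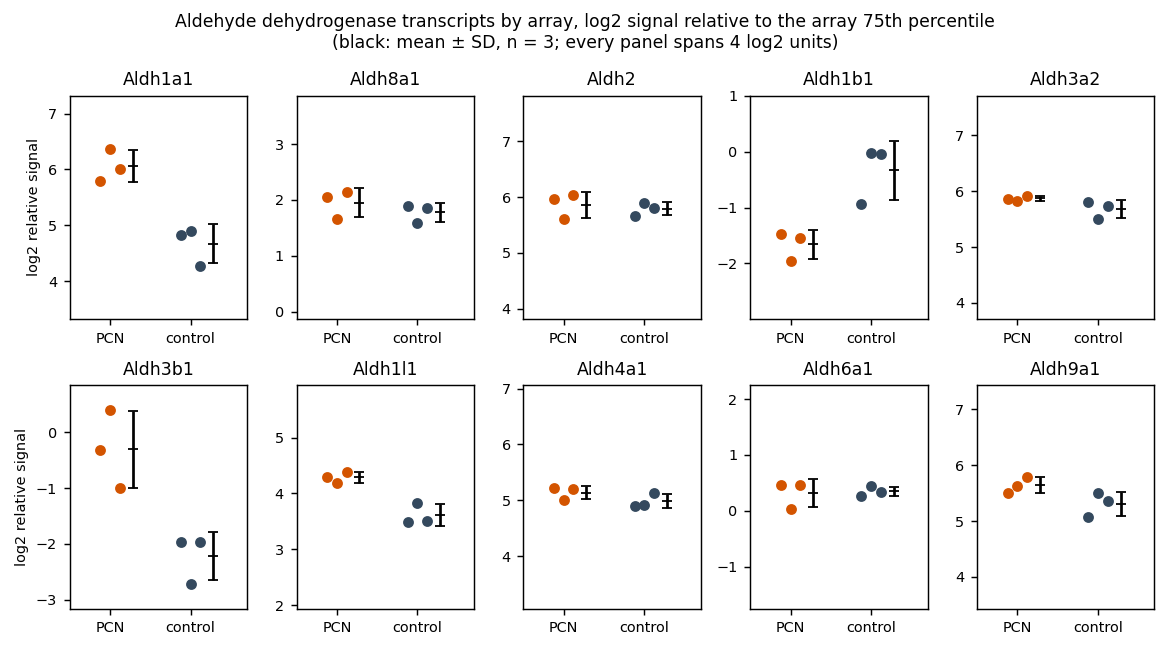
Level of each of the 10 aldehyde dehydrogenases on each array (log2 signal relative to the array's 75th percentile), PCN on the left and control on the right of each panel, with points for arrays 1 to 3 and black bars for mean ± SD. The PCN arrays lie above the control arrays for Aldh1a1, Aldh3b1 and Aldh1l1, by a small gap also for Aldh3a2 and Aldh9a1, and below them for Aldh1b1. Those of Aldh2, Aldh4a1, Aldh6a1 and Aldh8a1 overlap.

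Aldh3b1 and Aldh3a2 oxidise aldehydes that come from lipids. Aldh3b1, which in human cells handles medium- and long-chain aldehydes including those of lipid peroxidation, had levels of −0.33, 0.39 and −0.99 in PCN livers, against −1.97, −2.72 and −1.96 in control livers. It varied most among the PCN arrays, and every PCN array still lay above every control array. The change was 1.91 ± 0.37, a 3.75-fold rise (adjusted p = 0.0152), and the 95% interval ran from 1.02 to 2.80. Every fit with 1 array left out called it, with changes between 1.56 and 2.25.

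Aldh3a2, the fatty aldehyde dehydrogenase of the endoplasmic reticulum, has 2 probes. At the brighter one, levels were 5.87, 5.82 and 5.92 in PCN livers, against 5.81, 5.51 and 5.73 in control livers. The groups did not overlap, but the gap was small, and the change of 0.19 ± 0.11 did not pass (adjusted p = 0.295). The other probe gave 0.12 ± 0.12, in the same direction and also not past the test.

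The folate enzyme Aldh1l1 rose. It is the cytosolic formyltetrahydrofolate dehydrogenase, an abundant liver protein that releases a folate-bound carbon unit as carbon dioxide. Its levels were 4.30, 4.18 and 4.38 in PCN livers, against 3.49, 3.84 and 3.50 in control livers. Control replicate 2 was the highest of the control arrays and stayed below every PCN array. The change was 0.68 ± 0.13, a 1.60-fold rise (adjusted p = 0.0145). The call ended on leaving out control replicate 1 or 3 (adjusted p = 0.0535 and 0.0541) and with scaling to the E1A spike-in controls, where the change was 0.43 (adjusted p = 0.0869).

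Its mitochondrial relative Aldh1l2, which is not among the 10, had levels of 0.59, 0.42 and 0.50 in PCN livers, against 0.98, 0.86 and 1.10 in control livers. It fell by 0.48 ± 0.11 (adjusted p = 0.0265), a call lost in 4 of 6 fits with 1 array left out, the others being those without PCN replicate 1 or control replicate 2. It was also lost with median scaling (−0.36, adjusted p = 0.0580) and with no filter on dim probes (0.0838). Taken array by array, the change of Aldh1l1 exceeded that of Aldh1l2 by 1.15, with spreads of 0.084 in PCN livers and 0.31 in control livers (SD). The groups did not overlap for this difference (two-sided exact permutation p = 0.1, the smallest possible).

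The enzymes of amino acid and carnitine metabolism did not pass the test. Aldh4a1, which makes glutamate in mitochondrial proline breakdown, had levels of 5.21, 4.999 and 5.19 in PCN livers, against 4.90, 4.92 and 5.13 in control livers. The groups overlapped, and the change was 0.15 ± 0.12 at this probe and 0.23 ± 0.21 at the dimmer one (adjusted p = 0.408 for the brighter). Aldh6a1, the mitochondrial methylmalonate semialdehyde dehydrogenase of valine and thymine breakdown, had levels of 0.45, 0.031 and 0.46 in PCN livers, against 0.27, 0.44 and 0.34 in control livers. The PCN arrays lay on both sides of the control arrays, and the change was −0.032 ± 0.14 (adjusted p = 0.902, 95% interval −0.38 to 0.31).

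Aldh8a1, the cytosolic aminomuconate semialdehyde dehydrogenase of tryptophan breakdown, had levels of 2.05, 1.66 and 2.15 in PCN livers, against 1.88, 1.59 and 1.85 in control livers. PCN replicate 2 lay among the control arrays, and the change was 0.18 ± 0.16 (adjusted p = 0.491). Aldh9a1, which makes a precursor of carnitine from trimethylaminobutyraldehyde, had levels of 5.50, 5.64 and 5.80 in PCN livers, against 5.06, 5.50 and 5.36 in control livers. The lowest PCN array barely exceeded the highest control array. The change of 0.34 ± 0.15 did not pass (adjusted p = 0.154), and its 95% interval of −0.0087 to 0.69 includes a rise as large as that of Aldh1l1.

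**Figure D2:**
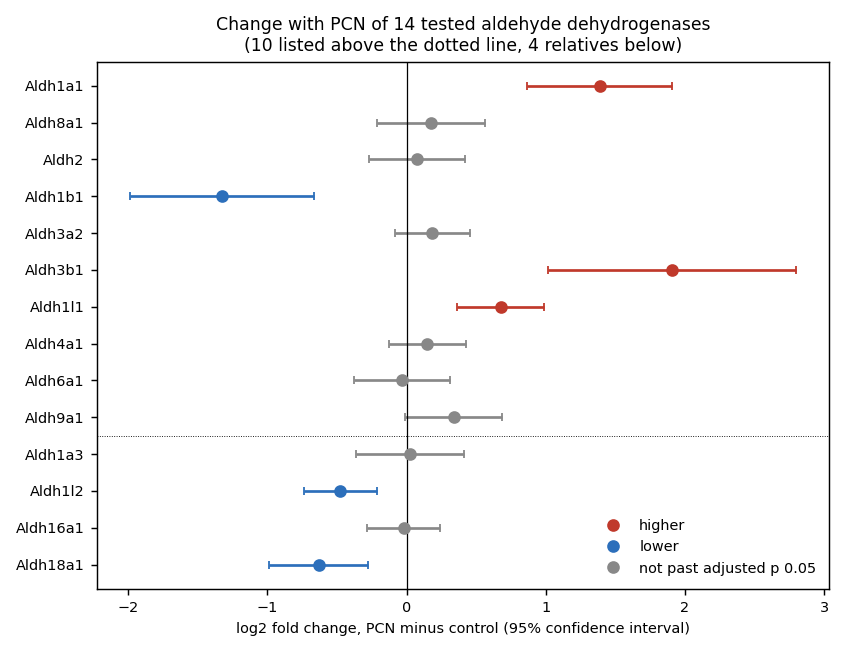
Change with PCN (log2, PCN minus control) of the 14 tested aldehyde dehydrogenases with 95% confidence intervals from limma, the 10 genes above the dotted line and 4 relatives below it. The intervals of Aldh3b1, Aldh1a1 and Aldh1l1 lie above 0 and that of Aldh1b1 lies below 0.

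All 12 probes of the 10 genes were well above background on all 6 arrays, so each gene was tested and none owed its place to one group. No spot of these probes was saturated or marked as an outlier. Probes with 2 spots repeated within an array to 0.29 or less on the log2 scale, the largest gap being that of Aldh3b1. Spread among animals differed between genes. Among PCN arrays the SD ran from 0.046 for Aldh3a2 to 0.69 for Aldh3b1, and among control arrays from 0.085 for Aldh6a1 to 0.53 for Aldh1b1.

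Other aldehyde dehydrogenases were also looked up. Of 11 relatives in the list 6 had a matched probe and 4 were tested. Of these 0 rose and 2 fell, with a median change of −0.25. Over all tested genes 15.5% were called lower and the median change was −0.064, and 4 genes are too few to set apart from that. Besides Aldh1l2 the relative that fell was Aldh18a1, which makes the proline precursor from glutamate and fell by 0.63 ± 0.15 (adjusted p = 0.0279). Its levels were −4.02, −4.32 and −4.02 in PCN livers, against −3.70, −3.29 and −3.49 in control livers. The call of Aldh18a1 ended in 10 of 18 alternatives, 5 of them being the fits with 1 array left out other than control replicate 1, and with normexp background correction the change was −0.13 (adjusted p = 0.406). A second, dimmer probe of Aldh18a1 was not tested and gave −0.23. Aldh1a3, a retinal-oxidising enzyme, gave 0.026 ± 0.16 (adjusted p = 0.931), and Aldh16a1 gave −0.022 ± 0.11 (adjusted p = 0.914). The Aldh1a3 probe was dim, with processed signals of 13.0 to 25.2, and its 2 spots differed by up to 1.22 on the log2 scale.

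Aldh1a2, the retinal dehydrogenase of embryonic tissues, was not well above background on any of 6 arrays and was not tested. Aldh3a1, a xenobiotic-inducible member in rodents, was well above background on 1 PCN array and 2 control arrays and was not tested either. Its levels were −5.29, −5.83 and −6.13 in PCN livers, against −4.82, −4.43 and −5.71 in control livers, so the groups overlapped near the limit of detection.

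**Figure D3:**
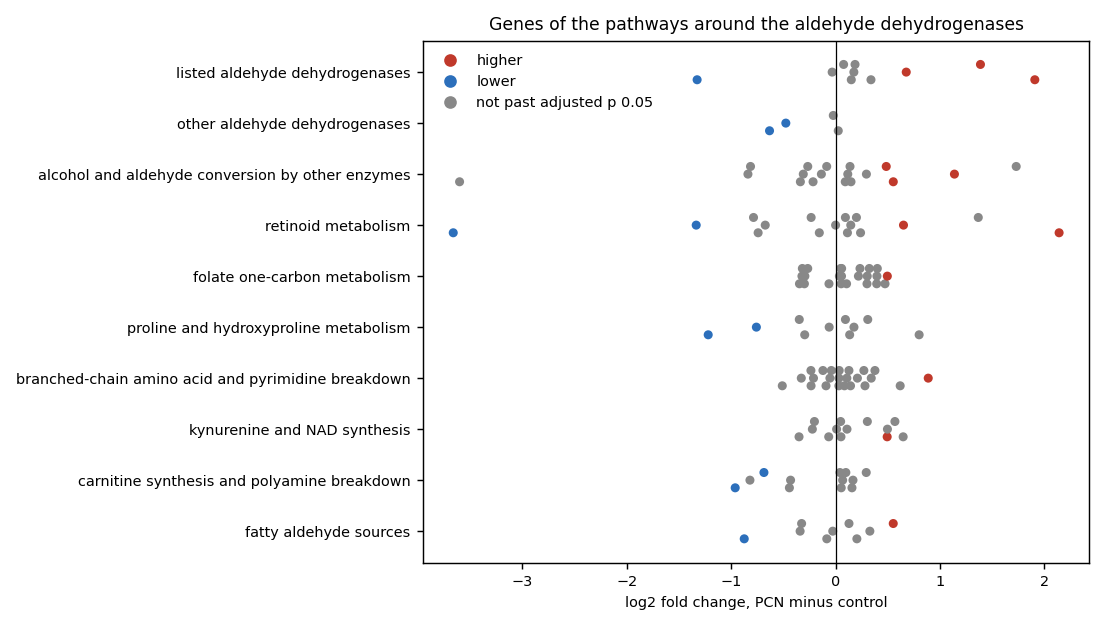
Change with PCN (log2, PCN minus control) of each tested gene of the aldehyde dehydrogenase lists and of 8 pathway lists, 1 point per gene, red for higher, blue for lower and grey for not past adjusted p 0.05. Most points lie near 0, and the retinoid list spans from −3.66 for Cyp26b1 to 2.14 for Cyp26a1.

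The pathways that feed these enzymes or use their products were counted in the reported setting. Across 8 lists 124 genes were tested, of which 9 rose, 7 fell and 108 did not pass, with a median change of 0.054. The called share is below the 19.9% of all tested genes. The 7 falls are a smaller share than the 15.5% called lower over all tested genes, and the 9 rises a larger one than the 4.37% called higher. These shares depend on scaling. Over all tested genes 716 were higher and 2547 lower in the reported setting, 1426 and 1772 with quantile scaling, and 169 and 4579 with spike-in scaling. Rises and falls of the pathway genes were not counted apart under the alternatives. No test was made of the lists as a whole. Retinoid metabolism surrounds Aldh1a1, and of its 16 tested genes 2 rose and 2 fell. Cyp26a1, which clears retinoic acid, had levels of −1.21, −0.27 and −1.19 in PCN livers, against −2.41, −3.54 and −3.14 in control livers, a rise of 2.14 ± 0.36 (adjusted p = 9.35e-03). Dhrs3, which turns retinal back into retinol, rose by 0.65 ± 0.097 (adjusted p = 6.59e-03), a call that ended with spike-in scaling (0.40, adjusted p = 0.0546). Cyp26b1, another retinoic acid hydroxylase, did not stand well above background on any PCN array and was tested only through its 3 control arrays. By a bound it was at least 10.3-fold lower on the reported scale (adjusted p = 4.09e-03). With normexp its change was −1.01 (adjusted p = 9.75e-03), which falls short of that bound. For that bound each dim array was given its lowest signal counted as above background, or the signal of the probe where this was higher. Lrat, which stores retinol as esters, fell by 1.33 ± 0.22 (adjusted p = 8.67e-03). Lrat is also 1 of 10 stellate cell markers, which summed to 19.3 to 22.9 in PCN livers and 21.6 to 23.1 in control livers (multiples of the 75th percentile). Of these markers 1 was higher (Rgs5) and 2 were lower, Lrat itself and Acta2. The sum rests mostly on the bright probes of Col3a1 and Col1a2, with changes of 0.089 and −0.052. The part of these cells was not tested.

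Enzymes that convert alcohols and aldehydes by other chemistry rose at 3 of 18 tested genes and fell at 0. Akr7a2, an aldehyde reductase, rose by 0.55 ± 0.11 and Akr1a1, another one, by 0.49 ± 0.13 (adjusted p = 0.0152 and 0.0396). Aox4, an aldehyde oxidase, was not well above background on 3 of 3 control arrays and was tested only through its 3 PCN arrays. By the bound used for Cyp26b1 it was at least 2.03-fold higher on the reported scale (adjusted p = 0.0492). Its changes with spike-in scaling and with normexp, given below, fall short of that bound. Leaving out any 1 of the 6 arrays ended the call of Aox4, at adjusted p of 0.0513 to 0.119. Leaving out any array but PCN replicate 1 ended that of Akr1a1 (0.0597 to 0.119), and leaving out control replicate 1 or 2 ended that of Akr7a2 (0.0502 and 0.0538). With spike-in scaling none of the 3 was called, at 0.30 for Akr7a2, 0.24 for Akr1a1 and 0.89 for Aox4 (adjusted p = 0.106, 0.235 and 0.0544), nor with no filter on dim probes (0.0540, 0.108 and 0.106), and normexp gave 0.40 for Aox4 (0.0607).

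In proline and hydroxyproline metabolism, which meets Aldh4a1, 0 of 10 tested genes rose and 2 fell. Prodh, the proline dehydrogenase whose product Aldh4a1 oxidises, had levels of 2.80, 1.63 and 2.53 in PCN livers, against 3.45, 3.91 and 3.26 in control livers. It fell by 1.22 ± 0.32 (adjusted p = 0.0412), and PCN replicate 2 lay lowest. Without PCN replicate 2 the change was −0.87 (adjusted p = 0.0522), and of the 6 such fits that without PCN replicate 1 alone kept the call. It was also lost with the mean of its probes (−1.28, adjusted p = 0.0925) and with no filter on dim probes (0.0922). Pepd, which frees proline from dipeptides, fell by 0.76 ± 0.12 (adjusted p = 7.07e-03).

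Branched-chain amino acid and pyrimidine breakdown, the setting of Aldh6a1, held 1 gene that rose among 23 tested and 0 that fell. This was Hibch, an enzyme of valine breakdown upstream of Aldh6a1, with a change of 0.89 ± 0.15 (adjusted p = 9.11e-03). Its levels were −0.70, −0.42 and −0.51 in PCN livers, against −1.40, −1.22 and −1.67 in control livers. In folate metabolism, around Aldh1l1, 1 of 23 tested genes rose and 0 fell: Mthfs, which recycles a stored folate form, by 0.50 ± 0.11 (adjusted p = 0.0233). In kynurenine and NAD synthesis, around Aldh8a1, 1 of 13 rose and 0 fell, the gene being Nmnat1, an NAD-forming enzyme of the nucleus, at 0.49 ± 0.13 (adjusted p = 0.0368). The call of Mthfs ended without PCN replicate 1 or 2 or control replicate 1 or 2 (adjusted p = 0.0567 to 0.0716), and that of Nmnat1 without any array but PCN replicate 2 (0.0868 to 0.108). With spike-in scaling the changes were 0.25 for both genes (adjusted p = 0.268 for Mthfs and 0.179 for Nmnat1), and with no filter on dim probes neither was called (0.0761 and 0.102).

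Carnitine synthesis and polyamine breakdown, around Aldh9a1, held 0 genes that rose and 2 that fell among 12. The carnitine transporter Slc22a5 fell by 0.96 ± 0.17 and the polyamine acetyltransferase Sat1 by 0.69 ± 0.16 (adjusted p = 0.0106 and 0.0260). The call of Sat1 ended without PCN replicate 2 or 3 or control replicate 2 or 3 (adjusted p = 0.0614 to 0.0809) and with no filter on dim probes (0.0709). Among 9 tested genes that release fatty aldehydes or their precursors, 1 rose and 1 fell. Sgpl1, the sphingosine phosphate lyase whose product Aldh3a2 oxidises, rose by 0.55 ± 0.093 (adjusted p = 9.40e-03), and with spike-in scaling its change was 0.30 and not called (adjusted p = 0.130). Agps, an enzyme of ether lipid synthesis, fell by 0.87 ± 0.14 (adjusted p = 8.89e-03), while the mean over its probes gave −0.14 (adjusted p = 0.318).

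By a set rule, the 3 genes closest in pattern to the member that rose most and to the one that fell most were found by Pearson correlation over the 6 arrays among 10044 genes with a symbol. For Aldh3b1 these were Vps35l, Rffl and Tef, with r of 0.996, 0.996 and 0.993. Their own changes were 0.34, 0.32 and 0.30, none past the test (adjusted p = 0.0697, 0.0734 and 0.105). For Aldh1b1 they were Sat1, Spry4 and Hcar2, with r of 0.994, 0.993 and 0.993, which fell by 0.69, 0.82 and 0.70. All of these correlations hold the difference between the groups, and they are given as a description.

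The response to PCN was visible on these arrays in all 7 tested genes of the receptor check list, for example Cyp3a23-3a1, an inducible cytochrome P450, with a rise of 4.31 ± 0.19. The 75th percentile of the signal was between 488 and 627 on PCN arrays and between 633 and 758 on control arrays, and between 61.6% and 68.9% of spots were well above background. The PCN arrays shared 1 slide and the control arrays another, and for every gene here the effects of slide and of treatment cannot be told apart. The share of called genes that were lower was 78.1%, and it was 96.4% after spike-in scaling, 65% after cyclic loess, 64.4% after normexp, 59.6% after median scaling and 55.4% after quantile scaling. The median change of all tested genes was 0.048 with quantile or median scaling and −0.31 with spike-in scaling. Defining hepatocyte markers were present, with 1 of 10 higher (Hnf4a) and 0 lower.

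Markers of other liver cells were measured beside the 10 genes. Summed Kupffer cell marker levels were 48.4 to 70.3 in PCN livers and 68.3 to 78.3 in control livers (multiples of the 75th percentile), with 0 of 11 called and all 11 changes negative. Summed T cell marker levels were 0.404 to 0.510 in PCN livers and 0.572 to 0.722 in control livers, with 2 of 4 lower, and 1 further T cell marker was at background throughout. Of endothelial markers 1 of 5 and of neutrophil markers 1 of 3 were lower, and 0 of 4 cholangiocyte, 0 of 4 red blood cell and 0 of 2 B cell markers were called. Over all tested genes 15.5% were called lower, and lists this short cannot be set apart from that share. The part of these cells in the aldehyde dehydrogenase changes was not tested, and in whole liver fewer cells of a type and less RNA per cell cannot be told apart.

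**Figure D4:**
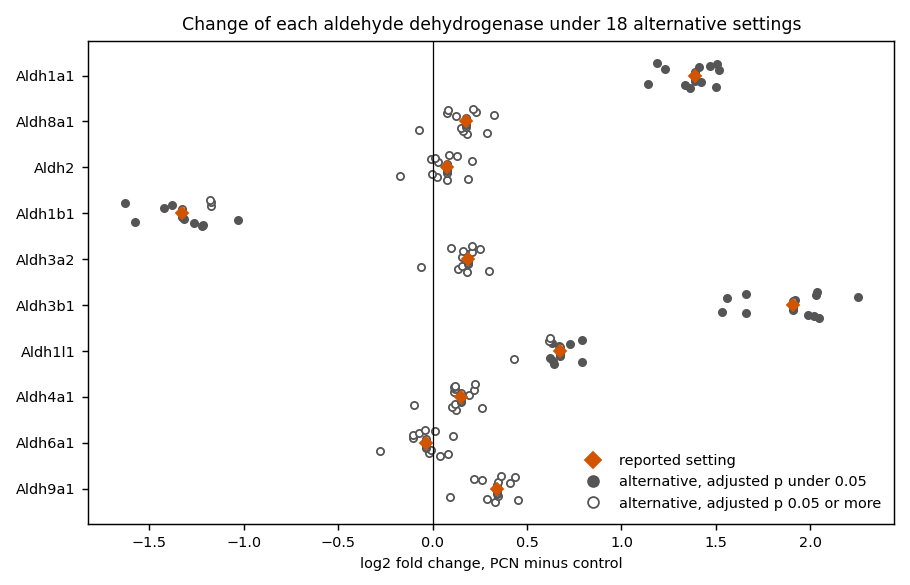
Change (log2, PCN minus control) of each of the 10 genes under the reported setting (diamonds) and 18 alternatives (circles, filled where adjusted p was under 0.05). Aldh1a1 keeps filled circles throughout, Aldh3b1 was not called in 1 alternative and Aldh1b1 and Aldh1l1 in 4 each (1 of these circles lies behind the diamond for each gene). Aldh2, Aldh6a1, Aldh3a2, Aldh4a1 and Aldh8a1 lie on both sides of 0, the last 3 through 1 alternative each.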

How the data were processed

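Liver RNA of 6 rats was measured on 1-colour Agilent arrays. The deposited intensity values were made with Feature Extraction 10.7.3.1 of Agilent, and per the file headers they are background-subtracted within each array and not scaled between arrays. Other marks per spot (well above background, saturated, outlier) were also set by that software, per the file headers. The authors' deposited value table holds a linear ratio, which matched processed signal over the 75th percentile of its array to within 0.0942, by comparison of the values, with column medians over non-control spots of 0.10 to 0.11 on PCN arrays and 0.12 on control arrays. The sources used here do not give the test that the authors ran on genes.

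In R 4.3.3 each processed signal was divided by the 75th percentile of non-control spots on the same array, and log2 was taken. Control and outlier spots were left out, and spots of a probe were averaged. Probes were named through RefSeq accessions (18004 of 30367 matched 1 symbol). A probe without a symbol kept the array's own name for its target, and each such name counted as a gene. A probe was tested if well above background on all 3 arrays of a group, and the brightest probe stood for a gene. The test of PCN against control arrays used lmFit and eBayes of limma 3.58.1 (no covariate, two-sided), adjusted over 16389 genes, and the fit was tested on simulated data. The number of arrays limits the precision. The genes, lists and tests were chosen with earlier results of these data known. Named genes are all listed aldehyde dehydrogenases and up to 4 called genes of each list with the largest change, genes of the receptor check, and the 3 genes closest in pattern to the member that rose most and to the one that fell most. The alternatives tried were quantile, median, cyclic loess and spike-in scaling, normexp, the deposited table, no filter or a stricter one, outlier spots kept, other probe rules, a replicate block, and each array left out. The files hold no mean spot signal, so normexp (offset 50) used the median signal, a choice made after seeing the files. Protein sequences were not used here.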

Additional observations from a re-analysis of the deposited data

How the results depend on the processing

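Of the 10 genes, Aldh1a1 kept its call and direction in all 18 alternatives, and no uncalled gene gained a call. Under 18 alternatives for 10 genes, 161 of these values kept direction and side of the threshold, 9 lost the call and 10 changed sign, the sign changes all in uncalled genes. With the replicate block 1 of the 10 was called higher (Aldh1a1) and 0 lower, with Aldh3b1, Aldh1l1 and Aldh1b1 at adjusted p = 0.0563, 0.0558 and 0.0554. All genes called were 2067 with the block, and other aldehyde dehydrogenases called were 0. Deviations of same-numbered arrays correlated at −0.10, −0.026 and −0.052, and those of differently numbered arrays at −0.017 to 0.075. With 3 arrays per group, these values cannot show whether the replicate numbers pair the rats. With 1 array left out, 2 to 3 genes were higher and 0 to 1 lower, all genes called were 2023 to 2592 against 3263, pathway genes called 10 to 16 against 16, and other aldehyde dehydrogenases called 0 to 1 against 2. Pathway genes called were 10 in the fit without control replicate 2. All genes called were 2023, 2112 and 2048 without control replicates 1, 2 and 3. Other aldehyde dehydrogenases called were 1 with quantile, median and cyclic loess scaling and with normexp. With no filter on dim probes 1967 genes in all, 10 pathway genes and 0 other aldehyde dehydrogenases were called, more genes being tested. The cause of the other shifts was not tested.

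The change of Aldh2 was −0.17 with spike-in scaling, −0.0025 with normexp and −0.0066 to 0.21 with 1 array left out. With spike-in scaling Aldh3a2 gave −0.062, Aldh4a1 −0.097, Aldh8a1 −0.073 and Aldh1a3 −0.22. Aldh6a1 gave 0.041 and 0.080 with quantile and median scaling, and Aldh16a1 0.091 with median scaling. With 1 array left out, Aldh6a1 ranged from −0.10 to 0.11, Aldh1a3 from −0.077 to 0.14 and Aldh16a1 from −0.10 to 0.025. The difference between the changes of Aldh1b1 and Aldh2 ranged from −1.64 to −1.03. The brightness of a probe over background limits the least bright genes, here Aldh1a2 and Aldh3a1 and, among those tested, Aldh1a3 and Aldh18a1.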

Other observations

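The genes around the 4 changed aldehyde dehydrogenases were looked at after their values were known. The nearest tested protein-coding gene on each side was taken in the gene order of GRCr8, passing over untested ones. Acy3 was thus 7 genes away, Gda 4, and Slc25a51 and Stra6l 2 each, while Ndufs8, Anxa1, Klf15 and Slc41a3 were 1 away. None of these 8 neighbours was called by limma, against 19.9% of all tested genes, and so few genes do not set them apart from that share. Beside Aldh3b1, Ndufs8, a subunit of respiratory complex I, gave 0.23 ± 0.11 and Acy3 gave 0.30 ± 0.22 on the log2 scale (adjusted p = 0.212 and 0.377). Beside Aldh1a1, Anxa1, a lipid-binding annexin, gave −0.064 ± 0.25 and Gda, guanine deaminase, gave 0.019 ± 0.11 (adjusted p = 0.887 and 0.923). Beside Aldh1l1, the transcription factor gene Klf15 gave −0.083 ± 0.17 and Slc41a3 gave −0.11 ± 0.41 (adjusted p = 0.772 and 0.877). Beside Aldh1b1, Slc25a51, the mitochondrial NAD carrier, gave −0.050 ± 0.14 and Stra6l gave 0.25 ± 0.11 (adjusted p = 0.838 and 0.169). Around the other 6 genes 1 of 12 such neighbours was called, also too few genes to set against the 19.9%. Mgst3, 2 genes away from Aldh9a1, was the one called, and it fell by 1.26 ± 0.26 (adjusted p = 0.0174).

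In the list of other alcohol and aldehyde enzymes, 2 genes that did not pass the test were picked after their values were seen. Akr7a3, an aldehyde reductase that acts on aflatoxin dialdehyde, had levels of 3.92, 5.84 and 4.88 in PCN livers, against 3.74, 3.38 and 2.34 in control livers. The groups did not overlap, and the change was 1.73 ± 0.54 (adjusted p = 0.0683 by limma). Adh6, an alcohol dehydrogenase, had levels of 1.36, −8.09 and 1.14 in PCN livers, against 2.17, 1.07 and 1.97 in control livers. PCN replicate 2 alone stood far below the other arrays and was not well above background, and the change was −3.60 ± 2.41 (adjusted p = 0.341).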
